A study of Mus musculus with 13 samples.

Results

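The Wnt ligands, the Frizzled receptors and the secreted Sfrp and Dkk inhibitors were followed through visceral fat and E0771 tumours of mice. Members were all genes whose symbol is Wnt, Fzd, Sfrp or Dkk followed by a number and, where present, a letter. The rule gave 37 of the 22609 genes in each table: 19 Wnt, 10 Fzd, 4 Sfrp and 4 Dkk genes. The rule itself used symbols alone and no measured value, but the families were chosen with earlier results of these data known. Shares of members set beside those of all genes therefore describe the set and are not a test.

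RNA was sequenced from C57BL/6 mice with 2 host labels, wild type (WT) and a KO in which PD-L1, encoded by Cd274, is said to be removed from fat only. The fat depot was visceral and its donors had been on HFD (a high-fat diet), and it gave 3 libraries of WT and 4 of KO hosts. E0771, a transplantable mouse breast cancer line, was grown as a transplanted mammary tumour, with 3 tumours from WT and 3 from KO hosts. All 4 groups share the strain, both fat groups the diet and both tumour groups the line. The promoter that restricts the deletion, the ages, the length of feeding, the diet of the tumour hosts, and whether fat donors carried tumours are not given in the sources used here. Nothing in the labels ties each library to a separate animal. The p-values therefore speak of the spread among libraries, which may be technical.

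Wnt ligands are lipid-modified secreted proteins. They bind the membrane-spanning Frizzled receptors together with the co-receptors Lrp5 or Lrp6, and in the canonical branch this stabilises beta-catenin, which then acts with TCF/LEF factors on target genes. Other branches, with Frizzled receptors and Ror or Ryk at the cell surface, lead to the cytoskeleton or to calcium. Sfrp proteins carry a Frizzled-like domain and bind Wnt ligands outside the cell, while Dkk1, Dkk2 and Dkk4 block the co-receptors. In fat, canonical Wnt signalling is known for holding back the conversion of precursors into adipocytes, and Wnt10b is the ligand best known for it. Wnt5a is a mainly noncanonical ligand, and Sfrp5 is a secreted protein of adipocytes that binds it.

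The fat libraries held 29362788 to 41534662 gene reads and the tumour libraries 22834259 to 34706555. Cd274, the gene said to be removed, stood in fat at 504.1, 738.6 and 527.9 normalised reads in WT and at 547.5, 521.1, 563.8 and 543.2 in KO libraries. The groups overlapped, with a log2 fold change of -0.10 (KO minus WT, limma adjusted p = 0.66). Bulk fat pools all its cells and the promoter is not given, so this value could not decide whether the deletion was present. KO fat therefore stands for the libraries labelled KO, and every direction is drawn from that label. All 10 adipocyte markers were detected in fat. In the tumours Krt8, an epithelial keratin, reached 8441 to 10313 normalised reads, while Epcam stood at only 22.5 to 81.5. In fat the summed adipocyte markers ran from 884281 to 1037730 normalised reads in WT and from 268408 to 421895 in KO libraries, with 10 of 10 lower. Macrophage markers ran from 44870 to 131374 in WT and from 234832 to 343831 in KO, with 9 of 9 higher. The summed endothelial markers ran from 56155 to 74537 in WT and from 24125 to 39619 in KO, with 10 of 10 lower. Fibroblast and progenitor markers overlapped, from 229051 to 411851 in WT and from 410126 to 553705 in KO. Of these 10 markers 2 were higher and 2 lower, and WT column 1 alone lay above the lowest KO library. Smooth muscle and pericyte markers ran from 63340 to 71423 in WT and from 23554 to 35452 in KO, with 5 of 10 lower. The summed mammary epithelial, skeletal muscle, and testis and epididymis markers were also lower in KO without overlap. In these lists limma called 1 of 6, 1 of 6 and 1 of 1 tested markers lower. The testis and epididymis sum stood at 694.2, 254.3 and 57.7 in WT columns 1, 3 and 4 and at 2.16 to 12.1 in KO. Mesothelial and lymphocyte sums overlapped, with 4 of 9 mesothelial markers lower and 1 of 9 lymphocyte markers higher. Marker lists shared genes: Des stood on both muscle lists, and Krt8 and Cdh1 on the mammary epithelial and mesothelial lists. In bulk tissue fewer cells of a type and less RNA per cell cannot be told apart, and the part of these markers in the results was not tested.

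In visceral fat the members fell more often than they rose. Of 37 members, 24 were abundant enough to test, and 15 of those (62.5%) passed limma at an adjusted p under 0.05: 11 were lower in KO fat (45.8%) and 4 were higher (16.7%). Over all 14455 genes tested, 34.2% passed, 17.4% lower and 16.8% higher. The share of members that rose was thus close to that of all genes, and the share that fell was above it. The median log2 fold change was -0.81 over the tested members and -0.00 over all tested genes. At an unadjusted p under 0.05 there were 17 members, against 45.4% of all genes. The WT and KO libraries did not overlap for 15 of 24 members (62.5%), 12 with KO below and 3 with KO above, against 43.7%, 22.1% and 21.6% of all genes. A total of 20 tested members had 10 or more normalised reads in all 7 libraries. Every tested member reached 10 in some library of each group. Wnt9b met the abundance filter through its 3 WT libraries, as KO replicate 3 alone of the KO libraries reached 10, at 10.9.

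**Figure D1:**
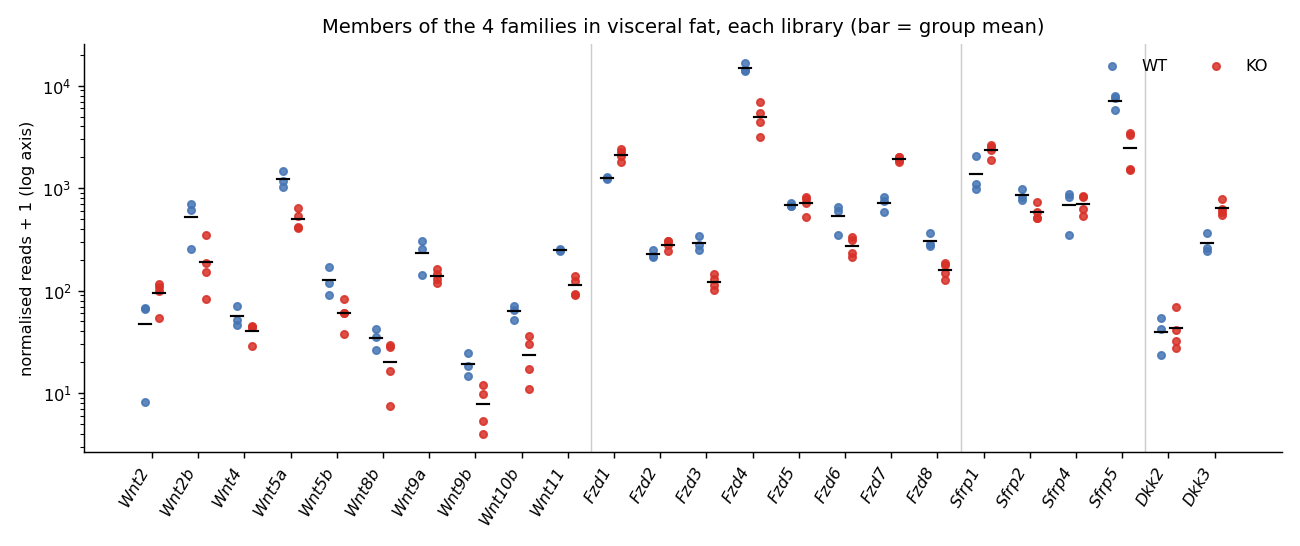
Normalised reads plus 1, on a log axis, of the 24 members tested in visceral fat; each point is a library (blue WT, n = 3; red KO, n = 4) and each bar a group mean. Fzd4 and Sfrp5 stand highest in WT fat and lie lower in all 4 KO libraries, while Fzd1, Fzd7 and Dkk3 lie higher.

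**Figure D2:**
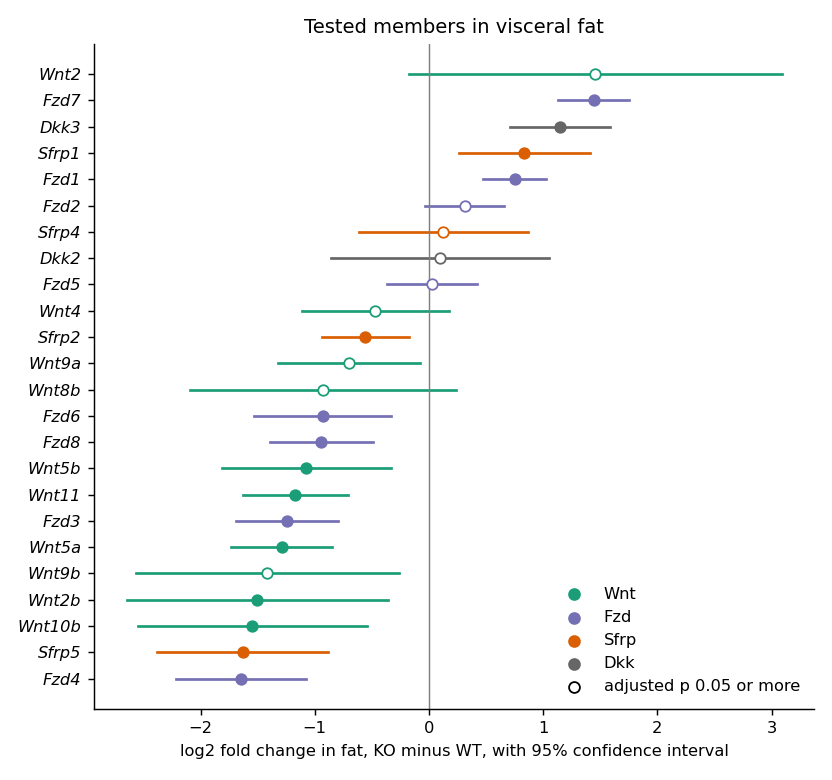
Log2 fold change, KO minus WT, of the 24 tested members in fat with its 95% confidence interval, ordered by size and coloured by family; open circles did not pass. Fzd4 is at the foot of the plot at -1.65, and Fzd7 at 1.44 is the highest filled circle.

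Upstream sequence is shown for 3 genes that fell in every fit, a receptor, an inhibitor and a ligand, chosen after their values were seen. Their windows reach at most 11 bases into the GENCODE transcript. The RefSeq promoter table (GRCm38.p6) matched 25 of the 37 members. Each line gives the 250 bases before the RefSeq start, 5′ to 3′ on the gene's strand, and capitals mark matches, on either strand, to the GC box GGGCGG, the TATA box TATAAA or the TCF/LEF motif CTTTGAT. The windows are chr7:89404116-89404365 (plus strand) for Fzd4, chr19:42202253-42202502 (minus strand) for Sfrp5 and chr7:98834862-98835111 (plus strand) for Wnt11.
Fzd4: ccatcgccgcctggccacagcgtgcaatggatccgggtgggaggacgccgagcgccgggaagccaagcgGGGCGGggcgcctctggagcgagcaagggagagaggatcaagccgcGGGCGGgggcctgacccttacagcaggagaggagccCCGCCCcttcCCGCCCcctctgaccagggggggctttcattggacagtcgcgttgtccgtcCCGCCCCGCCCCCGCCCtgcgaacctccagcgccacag
Sfrp5: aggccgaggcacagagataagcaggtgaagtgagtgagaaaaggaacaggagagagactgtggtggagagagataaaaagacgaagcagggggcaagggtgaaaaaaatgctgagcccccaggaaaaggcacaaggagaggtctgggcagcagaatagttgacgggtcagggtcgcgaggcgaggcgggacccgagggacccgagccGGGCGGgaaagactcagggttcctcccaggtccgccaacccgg
Wnt11: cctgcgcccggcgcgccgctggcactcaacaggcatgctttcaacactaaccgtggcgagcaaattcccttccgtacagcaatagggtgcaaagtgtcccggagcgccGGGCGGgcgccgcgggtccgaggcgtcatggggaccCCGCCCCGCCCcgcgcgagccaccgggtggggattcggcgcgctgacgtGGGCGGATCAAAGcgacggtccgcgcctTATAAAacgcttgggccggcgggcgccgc
The Fzd4 window held 7 GC boxes and no TATA box, and the Sfrp5 window a single GC box, beginning 43 bases before the start. The Wnt11 window held 4 GC boxes, a TATA box beginning 29 bases before the start and a TCF/LEF motif beginning 51 bases before it. That TCF/LEF match, on the reverse strand, directly follows a GC box. Neighbouring GC boxes in the Fzd4 and Wnt11 windows can share a base, and each was counted. The TCF/LEF match was the only TCF/LEF match among the 25 member promoters (4%), and 3.21% of all 32851 promoters hold one. GC boxes were in 19 of 25 member promoters (76%) and in 32.7% of all, and TATA boxes in 4 of 25 (16%) and in 12.4% of all. These matches describe letters in the window and not binding.

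Among the 19 Wnt ligands, 10 were tested in fat, 5 fell, none rose and 5 did not pass. Of those tested 50% fell and 0% rose, against 17.4% and 16.8% of all genes. The members of this family summed to 2411, 2526 and 2822 normalised reads in WT fat and to 1061, 908.4, 1525 and 1292 in KO fat. Every KO library lay below every WT library in this sum.

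Wnt5a (chromosome 14, 28504750 to 28527448, plus strand, GRCm38) had the highest mean of the ligands per kilobase of exon, at 155.5 ± 27.6 normalised reads per kb in WT fat, with Wnt2b at 124.0 ± 55.8 (SD, n = 3). That order rested on WT column 1: Wnt2b was above Wnt5a in WT columns 3 and 4, at 26.9% and 27.8% of the family's reads per kb against 24.3% and 25.1%. It stood at 1453, 1029 and 1168 normalised reads in WT libraries and at 420.6, 406.7, 636.5 and 538.1 in KO libraries. The groups did not overlap, and the log2 fold change was -1.29 (SE 0.19, limma adjusted p = 0.0023). Wnt5a supplied 47.5% ± 11.1 of the family's reads in WT fat and 42.0% ± 2.12 in KO fat (SD, n = 3 and 4). These shares overlapped between the groups.

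Wnt11 (chromosome 7, 98835112 to 98855195, plus strand), another ligand of the noncanonical branch and the one whose upstream window holds the TCF/LEF motif, was very even in WT fat, at 242.6, 250.4 and 252.6 normalised reads. KO libraries held 92.7, 90.6, 138.9 and 124.0. All KO values lay below, with a log2 fold change of -1.17 (SE 0.20, limma adjusted p = 0.00361).

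Wnt10b (chromosome 15, 98770712 to 98778150, minus strand), the canonical ligand known from fat cell precursors, held 50.8, 70.4 and 63.9 normalised reads in WT and 9.93, 16.2, 29.1 and 35.3 in KO fat. The groups did not overlap and the log2 fold change was -1.55 (SE 0.44, limma adjusted p = 0.0261). This call was lost without WT column 3, without WT column 4 or without KO replicate 2.

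Wnt5b, a close relative of Wnt5a, held 90.3, 116.4 and 169.1 normalised reads in WT and 59.6, 36.7, 59.0 and 81.6 in KO fat. KO values were all below, with a log2 fold change of -1.07 (SE 0.32, limma adjusted p = 0.0331). It was lost when any of WT columns 3 and 4 or KO replicates 1, 2 and 3 was left out.

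Wnt2b, a ligand that can act through beta-catenin, held 254.6, 612.4 and 696.0 normalised reads in WT and 151.2, 82.0, 347.7 and 183.4 in KO fat. WT column 1 lay below KO replicate 3, so the groups overlapped. The log2 fold change was -1.50 (SE 0.50, limma adjusted p = 0.0478), and the call was lost without WT column 3 or 4, without KO replicate 1, 2 or 4, and without the abundance filter (adjusted p = 0.0551). In the order of its WT values, summed mesothelial markers stood at 4938, 8081 and 9622 in WT columns 1, 3 and 4. In KO libraries they stood at 2860 to 5071. Summed adipocyte markers had the same WT order, at 884281, 917474 and 1037730, and ran from 268408 to 421895 in KO. The other marker lists did not have that order. What part mesothelial or adipocyte markers had in the Wnt2b result was not tested.

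The other 5 tested ligands did not pass. Wnt9b had a log2 fold change of -1.41 (limma adjusted p = 0.059) at 13.8 to 23.5 normalised reads in WT and 3.02 to 10.9 in KO fat. Wnt9a stood at -0.70 (limma adjusted p = 0.0793), and DESeq2 on the recovered reads gave it an adjusted p of 0.0339. Wnt4 was at -0.47 and Wnt8b at -0.93. Wnt2 was the single tested ligand with a positive value, 1.46 (SE 0.71, limma adjusted p = 0.148). It held 66.2, 65.5 and 7.22 normalised reads in WT and 115.9, 107.9, 53.6 and 98.8 in KO fat, so WT column 4 alone lay far from the others. Without that library the log2 fold change was 0.45, and DESeq2 gave 1.02 over all libraries.

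The other 9 Wnt genes were too low to test in fat. Wnt3a and Wnt7a had no read in any library, which allows up to 0.102 CPM in the shallowest library (3 reads of its gene reads, counting error only). Wnt1, Wnt3, Wnt6, Wnt7b, Wnt8a, Wnt10a and Wnt16 did not exceed 18 reads. Wnt7b, at 6.88, 8.80 and 18.6 normalised reads in WT and 1.10, 0, 4.54 and 0 in KO fat, passed in DESeq2 and in limma once the filter on low values was dropped.

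Among the 10 Frizzled receptors, 8 were tested in fat, 4 fell, 2 rose and 2 did not pass. Of those tested 50% fell and 25% rose, against 17.4% and 16.8% of all genes. The makeup of the family shifted from Fzd4 towards Fzd1 and Fzd7. Summed Frizzled reads were 17782, 18218 and 21002 in WT and 8672, 10251, 12145 and 11196 in KO fat.

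Fzd4 (chromosome 7, 89404355 to 89413134, plus strand), a receptor for Wnt ligands and, in blood vessels, for norrin, was the leading Frizzled gene. It held 13938, 14201 and 16811 normalised reads in WT and 3131, 4397, 6976 and 5392 in KO fat. Every KO library was under every WT library, with a log2 fold change of -1.65 (SE 0.25, limma adjusted p = 0.0023), which is 3.13-fold lower. Fzd4 supplied 73.4% ± 1.32 of Frizzled reads per kb in WT fat and 37.4% ± 8.82 in KO fat (SD, n = 3 and 4).

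Fzd7 (chromosome 1, 59482424 to 59486955, plus strand), a receptor tied to stem cell maintenance in the gut, was the member of smallest p. It held 815.5, 583.0 and 750.6 normalised reads in WT and 1896, 2013, 1802 and 2007 in KO fat. The KO libraries were tightly grouped above all WT libraries, with a log2 fold change of 1.44 (SE 0.14, limma adjusted p = 0.000846). The fold was 2.72, with a 95% confidence interval of 2.19 to 3.36. Its share of Frizzled reads per kb was 5.23% ± 0.976 in WT and 22.1% ± 2.66 in KO fat.

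Fzd1 (chromosome 5, 4753839 to 4758035, minus strand), a close relative of Fzd7 that binds canonical ligands, held 1247, 1216 and 1280 normalised reads in WT and 2385, 2232, 1791 and 2043 in KO fat. The groups did not overlap, with a log2 fold change of 0.75 (SE 0.12, limma adjusted p = 0.00283). Its share of Frizzled reads per kb was 9.83% ± 0.651 in WT and 26.3% ± 5.89 in KO fat. In KO replicate 1, Fzd4 fell to 27.7% of the Frizzled reads per kb and Fzd1 led with 33.8%.

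**Figure D3:**
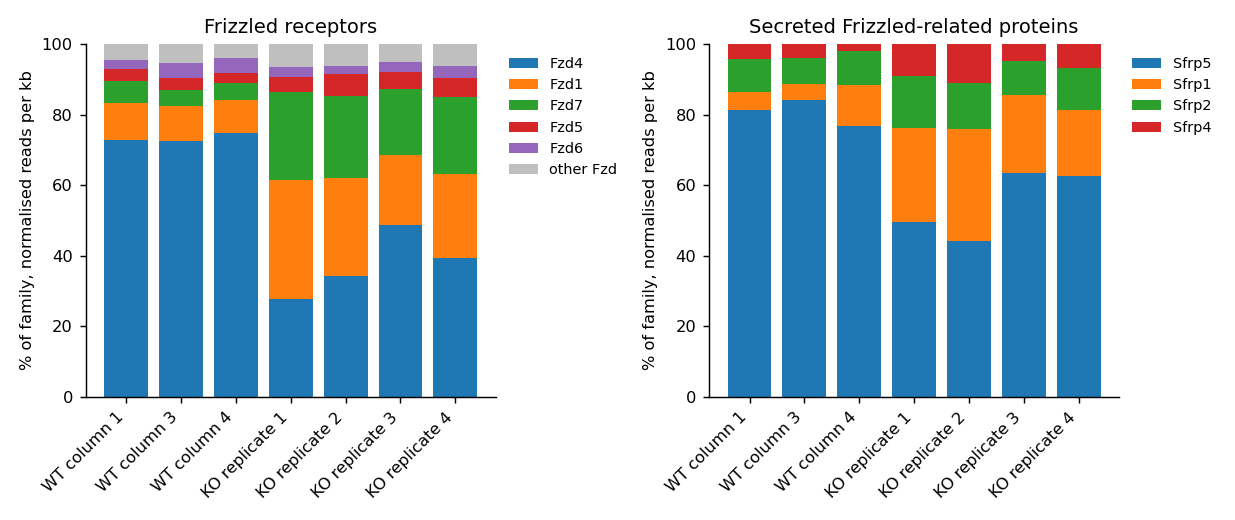
Share, in percent, of each gene in the summed normalised reads per kb of its family, with 1 bar for each of the 7 fat libraries. The Fzd4 segment takes 72.5% to 74.9% in the WT libraries and 27.7% to 48.6% in the KO libraries, and the Sfrp5 segment 76.6% to 84.2% and 44.0% to 63.5%.

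Fzd3 (chromosome 14, 65192449 to 65262463, minus strand), a receptor of the planar polarity branch, held 246.0, 279.8 and 340.3 normalised reads in WT and 99.3, 113.3, 128.0 and 144.1 in KO fat. All KO values were lower, with a log2 fold change of -1.25 (SE 0.20, limma adjusted p = 0.00264). Fzd8, which can pair with Lrp6 in canonical signalling, held 283.0, 362.9 and 270.1 in WT and 124.7, 148.9, 177.0 and 184.4 in KO fat. Its groups did not overlap either, with a log2 fold change of -0.94 (SE 0.20, limma adjusted p = 0.00787).

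Fzd6, like Fzd3 a receptor of the planar polarity branch, held 344.1, 591.8 and 655.8 normalised reads in WT and 232.9, 210.4, 314.1 and 332.6 in KO fat. WT column 1 lay just above the highest KO library, so the groups were separate by a narrow gap. The log2 fold change was -0.93 (SE 0.26, limma adjusted p = 0.0259), and the call was lost without WT column 3 or 4 or KO replicate 1 or 2.

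Fzd5 and Fzd2 did not pass. Fzd5 held 666.1 to 720.0 normalised reads in WT and 517.7 to 827.4 in KO fat, with a fold of 1.02 and a 95% confidence interval of 0.776 to 1.34. Fzd2 had a log2 fold change of 0.31 (limma adjusted p = 0.141). Fzd9 and Fzd10 were too low to test.

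All 4 Sfrp genes were tested in fat: Sfrp5 and Sfrp2 fell, Sfrp1 rose and Sfrp4 did not pass. The shares were 50% lower and 25% higher, against 17.4% and 16.8% of all genes. Sfrp5 (chromosome 19, 42197971 to 42202252, minus strand) had the highest level per kb of all members in WT fat, 3716 ± 580 normalised reads per kb (SD, n = 3), above Fzd4 at 2230 ± 236. It held 7524, 7853 and 5802 normalised reads in WT and 1523, 1503, 3319 and 3420 in KO fat. The KO libraries lay in a lower and a higher pair, both below WT, with a log2 fold change of -1.63 (SE 0.33, limma adjusted p = 0.00669).

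Sfrp2, which also binds Wnt ligands outside the cell, held 988.4, 766.0 and 811.5 normalised reads in WT and 511.1, 511.4, 578.4 and 733.6 in KO fat. The groups were separate by a narrow gap, with a log2 fold change of -0.56 (SE 0.17, limma adjusted p = 0.0316). The call held without KO replicate 4 and was lost when any other library was left out.

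Sfrp1 held 1098, 982.2 and 2058 normalised reads in WT and 1881, 2502, 2652 and 2339 in KO fat. WT column 4 was above KO replicate 1, so the groups overlapped. The log2 fold change was 0.83 (SE 0.25, limma adjusted p = 0.033), and edgeR on the recovered reads gave an adjusted p of 0.0505. The call was also lost without WT column 1 or 3 or KO replicate 2, 3 or 4. The Sfrp1 share of Sfrp reads per kb was 7.18% ± 4.02 in WT and 24.8% ± 5.74 in KO fat, without overlap. Sfrp4 held 873.2, 826.6 and 350.6 in WT and 538.4 to 831.4 in KO fat, and its log2 fold change was 0.13 (limma adjusted p = 0.793).

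Of the 4 Dkk genes, 2 were tested in fat, and Dkk3 rose (50%, against 16.8% of all genes). Dkk3 (chromosome 7, 112116017 to 112159057, minus strand) is the divergent Dkk protein, not known as a direct blocker of the co-receptors. It held 240.9, 260.2 and 367.1 normalised reads in WT and 627.0, 589.0, 546.6 and 783.0 in KO fat. All KO libraries were above WT, with a log2 fold change of 1.15 (SE 0.19, limma adjusted p = 0.00323). Dkk2, a co-receptor ligand, stood at 22.4 to 52.6 in WT and 26.5 to 69.0 in KO fat and did not pass (log2 fold change 0.09, limma adjusted p = 0.882). Dkk1 had no read in any fat library, and Dkk4 at most 3 reads.

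The calls differed in how far they rested on single libraries. Fzd1, Fzd3, Fzd4, Fzd7, Fzd8, Wnt5a, Wnt11, Sfrp5 and Dkk3, 9 of the 15, passed in every one of the 7 fits that left out a library and in the 6 other settings tried. With WT column 3 left out, 3 members passed higher and 6 lower, and 3065 of 14340 genes passed. With WT column 4 left out, 4 members passed higher and 6 lower, and 4043 of 14300 genes passed. With KO replicate 2 left out, the members gave 3 higher and 6 lower, and 3465 of 14371 genes passed.

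Other genes of the pathway were read from 3 lists. Of 39 secreted, co-receptor and agonist genes outside the 4 families, 29 were tested, 10 fell and 3 rose, so that 44.8% passed against 34.2% of all genes. The share that fell was 34.5%, against 17.4% of all genes, and the share that rose 10.3%, against 16.8%. Their median log2 fold change was -0.50. Apcdd1, a membrane inhibitor of Wnt signalling that is itself a Wnt target, fell from 6505 ± 1667 to 883.9 ± 342 normalised reads (SD, n = 3 and 4), a log2 fold change of -2.93 (SE 0.30, limma adjusted p = 0.000939). Lgr4, a receptor for R-spondins, fell from 2724 ± 272 to 1151 ± 137 (log2 fold change -1.25, limma adjusted p = 0.000939). Gpc4, a heparan sulfate proteoglycan, fell by 1.61 on the log2 scale (limma adjusted p = 0.000982).

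The co-receptor Lrp5 fell from 5370 ± 251 to 2564 ± 517 normalised reads (SD, n = 3 and 4), with a log2 fold change of -1.09 (SE 0.17, limma adjusted p = 0.00261). Lrp6, its close relative, did not pass (-0.27, limma adjusted p = 0.296). Tspan12, a tetraspanin that works with Fzd4 in norrin signalling, fell by 1.11 on the log2 scale (limma adjusted p = 0.00272). Wls, the carrier that takes Wnt proteins to the surface, stood at 5029 ± 274 in WT and 5029 ± 445 in KO fat (limma adjusted p = 0.989). Porcn, the enzyme that adds their lipid, did not pass (-0.62, limma adjusted p = 0.0825).

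Frzb, an Sfrp relative outside the symbol rule also called Sfrp3, held 6.02, 17.6 and 74.2 normalised reads in WT and 186.6, 193.1, 43.6 and 108.8 in KO fat. WT column 4 was above KO replicate 3. The log2 fold change was 2.43 (SE 0.81, limma adjusted p = 0.0466), and the call was lost without WT column 1 or 3 or KO replicate 1, 2 or 4.

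Inside the cell, 3 of 30 tested genes fell and 2 rose, so that 16.7% passed against 34.2% of all genes. Leaving out single libraries gave 1 to 4 calls in each direction. Dvl2, a relay below Frizzled receptors, rose by a log2 fold change of 0.85 (limma adjusted p = 0.0044), as did Tle4, a co-repressor of TCF/LEF factors (0.57, adjusted p = 0.0204). Ctnnbip1, an inhibitor of the beta-catenin and TCF contact, fell by 0.57 on the log2 scale (limma adjusted p = 0.00952). Daam2, a formin of the planar polarity branch, fell by 1.01 (adjusted p = 0.0133), and Apc2, a relative of the scaffold Apc, by 1.00 (adjusted p = 0.0144). Ctnnb1, which encodes beta-catenin, stood at 18012 ± 1108 and 18011 ± 2020 normalised reads (limma adjusted p = 0.983), and Tcf7l2 at a log2 fold change of -0.29 (adjusted p = 0.205).

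Genes listed as beta-catenin targets went both ways: of 20 tested, 6 rose (30.0%, against 16.8% of all genes) and 5 fell (25%, against 17.4%), with a median log2 fold change of -0.07. Without WT column 3 the count was 3 rising and 3 falling, and without WT column 4 or KO replicate 2 it was 5 and 3. Axin2, a feedback inhibitor commonly read as a sign of canonical signalling, held 702.8, 433.4 and 642.4 normalised reads in WT and 203.1, 205.0, 395.9 and 342.6 in KO fat. KO values were all lower, with a log2 fold change of -1.08 (SE 0.29, limma adjusted p = 0.021), a call lost without WT column 1 or 4 or KO replicate 2. Ephb2, an ephrin receptor, fell by 0.79 on the log2 scale (limma adjusted p = 0.00752). Wisp1, a matricellular protein, had a log2 fold change of 1.77 (limma adjusted p = 0.00683), Cd44, an adhesion receptor also abundant on leukocytes, 2.15 (adjusted p = 0.008), and Sox4, a transcription factor, 1.03 (adjusted p = 0.0101). The lists share genes, tested or not. Apcdd1, Znrf3, Lgr5, Notum and Rnf43 are on this list and on the surface list, and Tcf7 and Lef1 on this and the intracellular list.

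**Figure D4:**
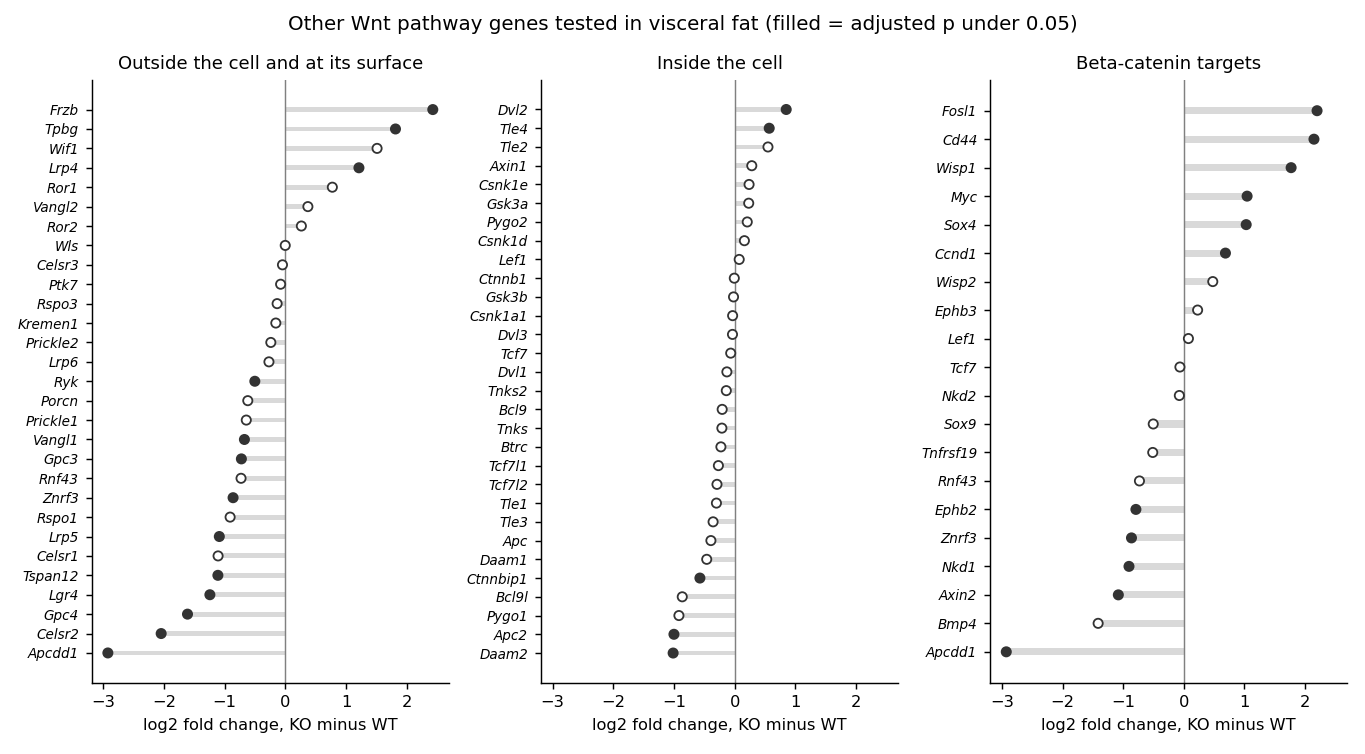
Log2 fold change, KO minus WT, of tested genes from 3 pathway lists in visceral fat, ordered by size within each panel; filled circles passed limma at an adjusted p under 0.05. Apcdd1, on the outside and target lists, lies lowest at -2.93, and most genes of the middle panel lie close to 0.

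In the tumours no member passed. A total of 14 of 37 members were tested, and edgeR called 0 of them and 0 of all 13109 genes (0.0%). At an unadjusted p under 0.05 there was 1 member and 905 genes (6.9%), and DESeq2 called 0 members and 59 genes. The highest read count of a member left untested was 32.

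**Figure D5:**
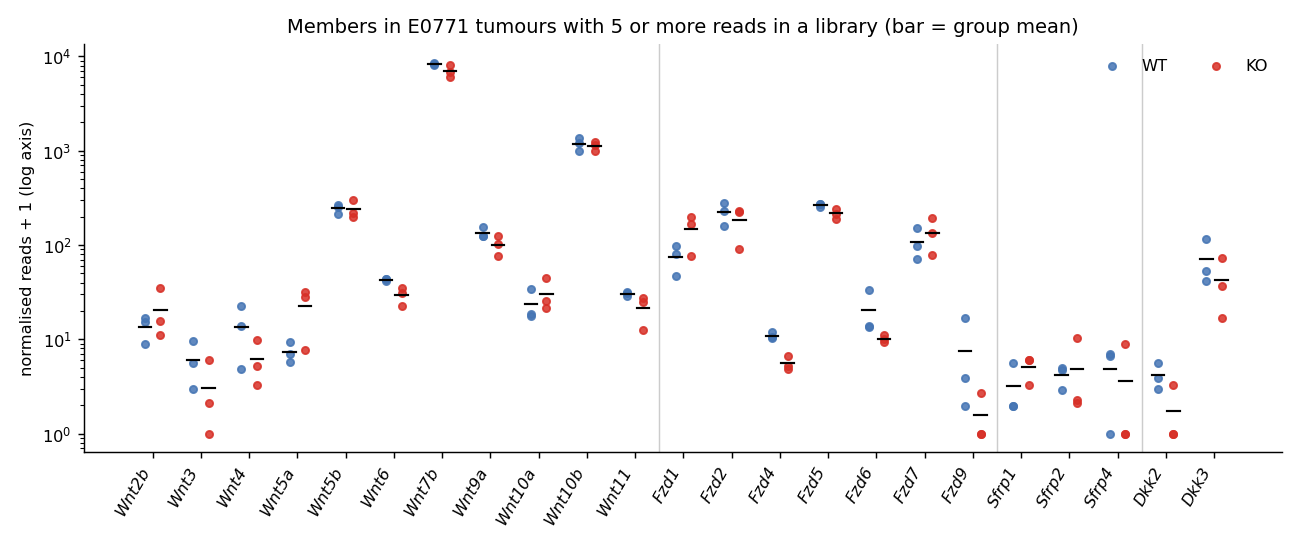
Normalised reads plus 1, on a log axis, of members with 5 or more reads in at least 1 tumour library; each point is a library (blue WT, n = 3; red KO, n = 3) and each bar a group mean. Wnt7b and Wnt10b stand above all other members in both groups.

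The ligands of the tumours were led by Wnt7b and Wnt10b. The tables of tumours and fat were normalised separately, so levels set side by side were not tested. Wnt7b (chromosome 15, 85535437 to 85582473), a mainly canonical ligand of epithelia, held 8107, 8604 and 8347 normalised reads in tumours of WT hosts and 8030, 6055 and 6907 in those of KO hosts. KO values were lower without overlap, by a narrow gap, and the log2 fold change was -0.26 (SE 0.12, edgeR adjusted p = 0.742). Wnt7b supplied 76.4% ± 2.49 of Wnt reads per kb in WT and 74.4% ± 1.36 in KO tumours (SD, n = 3 each). In fat Wnt7b did not exceed 18 reads in any library.

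Wnt10b came next at 1369, 988.2 and 1204 normalised reads in WT and 1147, 1001 and 1225 in KO tumours. The groups overlapped (log2 fold change -0.08, SE 0.15, edgeR adjusted p = 0.938). Wnt10b fell in fat but whether its change differed between tissues was not tested. Wnt5b followed at 244.9 ± 27.7 and 238.4 ± 54.6, and Wnt9a at 133.8 ± 16.4 and 99.9 ± 23.7 (SD, n = 3 each). Wnt5a, which fell in fat, was too low to test in tumours, at 6, 5 and 9 reads in WT and 32, 24 and 6 in KO.

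Frizzled genes were low in the tumours, with sums of 676.0 to 726.9 normalised reads in WT and 611.8 to 841.4 in KO. Fzd2 had the highest mean per kb in both groups, at 60.6 ± 16.4 and 49.7 ± 21.6 normalised reads per kb, with Fzd5 at 38.4 ± 1.46 and 31.1 ± 3.93 (SD, n = 3 each). Fzd1 stood at 17.7 ± 6.16 and 34.7 ± 15.1 per kb. Fzd2 and Fzd5 differed by more than either SD in WT tumours but not in KO tumours, where the order varied. In KO replicate 2, Fzd2 held 18.7% of Frizzled reads per kb, below Fzd5 at 20.7% and Fzd7 at 22.4%. Fzd1 led that library per kb: it had the most normalised reads of the family, 197.5, and a shorter exon length than Fzd5 or Fzd7. Fzd1 had the smallest p of the members: it held 96.5, 45.8 and 80.0 normalised reads in WT and 164.4, 197.5 and 75.2 in KO tumours. KO replicate 3 lay within the WT range, and the log2 fold change was 0.97 (SE 0.38, edgeR adjusted p = 0.676). Fzd6 held 12.8, 12.4 and 32.5 in WT and 8.43, 10.2 and 8.98 in KO tumours, with a log2 fold change of -1.07 (SE 0.58, edgeR adjusted p = 0.765). Fzd4, the leading receptor of fat, had 11, 10 and 10 reads in WT and 5, 3 and 5 in KO tumours and was not tested.

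Of the inhibitors, Dkk3 alone was tested in tumours, at 15.7 to 116.2 normalised reads over the 6 libraries and with overlap between the groups. The Sfrp genes were nearly absent, their sum being 9.55 to 12.1 normalised reads in WT and 6.37 to 14.3 in KO tumours. Dkk1, Dkk4, Wnt3a, Wnt7a, Wnt8a, Wnt9b and Wnt16 had no read in any tumour library, which allows up to 0.131 CPM in the shallowest.

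For 6 of the 14 tested members the tumour groups did not overlap (42.9%), always with KO below: Wnt6, Wnt7b, Wnt9a, Wnt11, Fzd5 and Fzd6. Over all tested genes 10.6% did not overlap, 4.93% with KO below and 5.68% with KO above, and none of these 6 members passed edgeR. The median log2 fold change was -0.27 over the tested members and 0.00 over all genes. Summed skeletal muscle markers were also lower in KO tumours, at 450.2 to 866.4 normalised reads in WT and 307.6 to 424.3 in KO. Their part in the member values was not tested. The other marker lists overlapped between the tumour groups.

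The pathway lists gave no call in the tumours either: edgeR called 0 of 22 surface, 0 of 28 intracellular and 0 of 14 target genes. At an unadjusted p under 0.05 there were 1, 4 and 1. Wisp1 had the smallest p, at 928.5 ± 36.2 normalised reads in WT and 1250 ± 25.4 in KO tumours (SD, n = 3 each; log2 fold change 0.43, edgeR adjusted p = 0.523). The co-repressors Tle4 and Tle2 stood at 0.56 and -0.75 (both edgeR adjusted p = 0.627), and Tspan12 at -1.91 (adjusted p = 0.646). The next smallest p values of their lists belonged to Apc2 at -0.50, Porcn at -0.50, Tpbg at 1.14, Wisp2 at -0.64 and Tcf7 at 0.21, with edgeR adjusted p values of 0.676 to 0.803. Axin2 was at 95.5 ± 11.2 and 77.7 ± 7.62 normalised reads (edgeR adjusted p = 0.855). Lrp5, Lrp6, Wls, Ctnnb1 and Tcf7l2 did not pass, at log2 fold changes of -0.26, 0.00, -0.07, -0.01 and 0.29. Frzb, with at most 27 reads, was not tested. Cd274 held 1391, 1688 and 1672 normalised reads in WT and 2414, 2147 and 1568 in KO tumours, with overlap (log2 fold change 0.37, edgeR adjusted p = 0.717).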

How the data were processed

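RNA was read from 13 libraries: 7 of visceral fat and 6 of E0771 tumours. Per the labels' protocols, libraries were made with a stranded TruSeq mRNA kit. The build mm10 and the tools TopHat, CASAVA and DESeq2 are named, per the submitters' processing notes. Versions, the counting tool, its strand setting and the annotation are not given in the sources used here, so reads of overlapping genes may be divided between them.

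For the tumours the authors deposited a raw read count per gene. Its 5 summary lines, 66.7% to 72.2% of entries, stayed out. For fat the authors deposited a signal, gene counts divided by a size factor per library: 117220 of 117220 values above 0 were whole reads within 0.001 (100.0%). Fat columns of WT are numbered 1, 3 and 4 and carry no label replicate number. Libraries of a group differed by more than sampling noise (chi-square per degree of freedom 23.1 to 224).

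Fat was tested with limma 3.58.1 (trend) on log2(value + 1), for 14455 genes with 10 or more in at least 3 libraries. The added 1 can make folds of low genes smaller, but they were not always below those of DESeq2. Wnt2 stood at 1.46 in limma and at 1.02 in DESeq2. Tumours were tested with edgeR 4.0.16 (TMM, filterByExpr, quasi-likelihood) in R 4.3.3, for 13109 genes, and their normalised reads are counts rescaled by TMM library size. Tests were two-sided, KO minus WT, with Benjamini-Hochberg adjustment over all tested genes. SE in edgeR was taken as the log2 fold change over the root of F. Both pipelines were also run on simulated counts of a fixed dispersion, with changes placed in abundant genes only. That run cannot speak for low genes or for the spread among these libraries. Positions and exon lengths are those of GENCODE M21 (GRCm38) for 37 members matched by symbol. Same-numbered tumour libraries did not deviate together (correlations -0.316, 0.0453 and -0.162), and the other pairs ran from -0.254 to 0.366. With 3 libraries in each group this check cannot exclude that the numbers pair them.

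Every member was accounted for. Also named were the 5 genes of smallest p per pathway list in fat, the 3 of smallest p in the tumours, and Cd274, Axin2, Lrp5, Lrp6, Wls, Porcn, Frzb, Ctnnb1 and Tcf7l2. Members and lists were chosen with earlier results of these data known. Alternatives were DESeq2 1.42.0, edgeR on the recovered fat reads, other library sizes and pseudocounts, no filter on low values, a replicate block in the tumours and leaving out each library.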

Additional observations from a re-analysis of the deposited data

Results flagged for a closer look

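Wnt4, a ligand known from kidney and gonad development, stood apart in 1 KO fat library. KO replicate 2 held 28.0 normalised reads against 43.0, 44.5 and 43.3 in the other KO libraries, and its gap to the nearest of them was 0.912 of the group's range. A single value apart is found by chance in about 1 of 20 groups of 4, and 24 members were examined this way in KO fat. Wnt4 did not pass in fat.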

How the results depend on the processing

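In fat the 15 member calls were kept under pseudocounts of 0.5 and 5 and under TMM library sizes. DESeq2 kept them all and added Wnt7b and Wnt9a, edgeR lost Sfrp1, and dropping the filter lost Wnt2b and gained Wnt7b. DESeq2 also called 5 surface genes higher in place of 3. Leaving out single libraries moved the members called lower between 6 and 11, all genes higher between 1575 and 2691, and all genes lower between 1490 and 2567. Wnt9a was gained as a lower call without WT column 1, and Wnt9b without KO replicate 3. Intracellular genes then gave 1 to 4 calls higher and 1 to 4 lower, and target genes 3 to 6 higher and 3 to 6 lower. The sign turned for members that did not pass: Dkk2 ranged from -0.25 to 0.35, Fzd5 from -0.054 to 0.17 and Sfrp4 from -0.30 to 0.36. In the tumours DESeq2 called 47 genes higher and 12 lower, and edgeR with no filter 21 higher and 1 lower, with no member among them. Leaving out single tumours gave 0 to 10 genes higher and 0 to 11 lower. There Fzd2 ranged from -0.48 to 0.038, Fzd7 from -0.023 to 0.68, Wnt10a from -0.0071 to 0.77, Wnt10b from -0.20 to 0.031, Wnt2b from -0.036 to 0.94 and Wnt5b from -0.24 to 0.088. With a replicate block the tumours gave 0 member calls and 0 genes, and 706 genes in place of 905 had an unadjusted p under 0.05. No paired analysis was possible in fat because the WT columns carry no replicate number from the labels. The cause of these differences was not tested. The filters on low values left 23 members in the tumours and 13 in fat without a test.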
